A study of Mus musculus with 20 samples.

Results

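The transcripts of 43 genes of glycolysis and of the response to low oxygen were followed in activated mouse CD8+ T cells given murine interleukin-21 (mIL-21) or 21h10, a computationally designed IL-21 mimic. The genes were chosen by name, by their roles, with earlier results of these data known. All 43 of them were found among the 23992 gene symbols in the tables. They comprise 2 glucose transporters, 9 enzymes of upper glycolysis, 2 PFKFB regulators, 6 enzymes of lower glycolysis, 3 genes of lactate and pyruvate fate, 4 genes of oxygen sensing, 2 mitochondrial BH3-only proteins, 13 other hypoxia genes and 2 genes of glycogen storage. Splenic CD8+ T cells of wild-type C57BL/6J mice aged 6 to 8 weeks had been enriched by negative selection, activated for 48 h through CD3 and CD28, and rested overnight. They were then left without cytokine (unstimulated) or exposed to cytokine for 24 h. The labels give 24 h for the cytokine groups and no time for the unstimulated cells. Whether the unstimulated cells were cultured as long is therefore not known from the labels, and an effect of time in culture was not tested. Experiment 1 held unstimulated cells and cells with 100 pM or 1 nM of either cytokine. Experiment 2 held unstimulated cells and cells with 10 nM or 100 nM of either cytokine. Each of the 10 groups had 2 libraries, labelled as duplicates. All cells had received the same activation, so the unstimulated cells are activated and rested cells, not naive ones. The 2 experiments shared no dose, so dose and experiment cannot be told apart between them. The labels do not say whether duplicates came from separate animals or cultures, and the p-values below measure the spread between these libraries, which may be technical.

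Glycolysis converts glucose to pyruvate, and activated T cells send much of that pyruvate to lactate even where oxygen is present. Many of its genes are targets of the transcription factor HIF-1, whose alpha subunit (Hif1a) is marked for destruction by the prolyl hydroxylases Egln1 and Egln3 and the ubiquitin ligase component Vhl when oxygen is plentiful. HIF-1 also acts on genes outside glycolysis, among them Vegfa, Bnip3 and Pdk1, and the hydroxylase Egln3 is itself a target, which makes these transcripts common readouts of the pathway.

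HIF-1 binds DNA at a short core, and this core was searched in the promoters of the 43 genes. The genes were chosen for roles that include targets of HIF-1, and a link of the core to the responses was not tested. The letters searched were ACGTG and GCGTG on both strands, and matches that shared the same central CG were counted once. RefSeq promoter windows (GRCm38.p6, 250 bases before to 50 after a start) were matched for 40 of the 43 genes, and 34 of the 40 (85.0%) held a match in at least 1 window. The share was 46.7% over all genes with a window and 66.5% over those also tested in experiment 1. A gene with several windows has more chances of a match, and the 40 genes had 61 windows, against 32851 for 27025 genes. By window, 75.4% of the 61 held a match, against 43.8% of all windows and 60.9% of those of tested genes. At least 3 matches in a window were found for 14 of the 40 genes (35%), against 7.82% and 14.8%. The 4 windows shown, the 250 bases before a start read 5′ to 3′ on the gene's strand, belong to genes with 3 to 6 matches in that stretch, given in capitals. They are Fam162a at chr16:36071562-36071811, Ankrd37 at chr8:45999851-46000100, Bnip3 at chr7:138909507-138909756 and Ero1l at chr14:45318573-45318822, all on the minus strand. The Ankrd37 window lies inside the span of the gene (45996908 to 46000414), before a start within it.
Fam162a: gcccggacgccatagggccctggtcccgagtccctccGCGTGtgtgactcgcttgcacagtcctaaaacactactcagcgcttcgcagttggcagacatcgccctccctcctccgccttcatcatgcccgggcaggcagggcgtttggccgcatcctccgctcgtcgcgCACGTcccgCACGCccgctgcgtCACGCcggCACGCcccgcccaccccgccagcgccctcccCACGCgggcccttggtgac
Ankrd37: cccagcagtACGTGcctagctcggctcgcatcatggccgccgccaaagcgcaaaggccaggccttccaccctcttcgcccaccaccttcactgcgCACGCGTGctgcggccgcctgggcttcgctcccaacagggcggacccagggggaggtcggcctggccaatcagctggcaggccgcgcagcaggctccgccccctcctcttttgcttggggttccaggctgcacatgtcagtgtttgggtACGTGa
Bnip3: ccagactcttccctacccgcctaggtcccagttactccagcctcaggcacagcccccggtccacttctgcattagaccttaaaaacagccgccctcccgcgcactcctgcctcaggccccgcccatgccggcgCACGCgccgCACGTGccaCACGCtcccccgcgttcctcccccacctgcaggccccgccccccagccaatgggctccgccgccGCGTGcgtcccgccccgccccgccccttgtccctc
Ero1l: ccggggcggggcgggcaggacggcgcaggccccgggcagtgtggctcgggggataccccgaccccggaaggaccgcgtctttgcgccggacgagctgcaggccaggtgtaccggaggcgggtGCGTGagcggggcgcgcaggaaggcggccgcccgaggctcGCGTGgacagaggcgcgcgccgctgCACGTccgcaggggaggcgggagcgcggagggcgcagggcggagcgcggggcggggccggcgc
A match of 5 letters is a description of the sequence and not evidence of binding. Fam162a, a mitochondrial protein raised by hypoxia, had 6 matches, Ankrd37 and Bnip3 had 4 each and Ero1l, an oxidase of protein folding, had 3.

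Depth and identity were checked before the responses. The libraries held 27074399 to 94079673 reads on genes, and all 43 genes passed the low-count filter in every fit. The defining CD8+ T cell markers (Cd3d, Cd3e, Cd3g, Cd8a, Cd8b1) summed to 880.5 to 1388 RPKM (reads per kilobase of transcript, scaled to mapped reads). Summed markers of CD4+ T cells, natural killer cells and erythroid cells stayed at or below 1.55, 1.03 and 0.573 RPKM, and B cell markers between 2.77 and 10.5 RPKM. The sum of the myeloid markers in experiment 1 was 3.39 to 3.64 RPKM in unstimulated libraries and 16.3 to 34.4 with cytokine. In experiment 2 the sum was 4.63 to 4.81 RPKM unstimulated and 12.3 to 22.7 with cytokine. Only Itgam and Cd68 of the 4 myeloid markers in the tables reached 1 RPKM. Csf1r stayed below 0.1 in all 20 libraries and Lyz2 was at most 0.232. In experiment 1 Itgam and Cd68 were each above their unstimulated levels in every treated library. In experiment 2 the higher sum lay mainly in Itgam, which went from 0.573 and 0.531 RPKM to 6.26 to 16.6. Cd68 overlapped there, at 3.82 and 4.19 RPKM unstimulated and 3.66 to 6.52 with cytokine. The part of the myeloid markers in the responses below was not tested, and in these bulk libraries fewer cells of a type cannot be told from less RNA per cell. In experiment 2 the duplicates of each cytokine group were offset for these genes, with 37 to 40 of the 43 higher in the same library and a median log2 ratio of 0.18 to 0.31, whereas the median over all tested genes was near 0. In experiment 1 the offsets were 0.00 to 0.05.

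The whole set rose with cytokine in experiment 1 and mostly fell in experiment 2. In experiment 1 all 43 genes were called higher than in unstimulated cells with each cytokine at each dose, at an adjusted p under 0.05 in the quasi-likelihood test of edgeR, Benjamini-Hochberg adjusted over 13974 genes, and all 8 treated libraries were above both unstimulated ones for each of the 43 in RPKM (32.6% of tested genes). The share of all tested genes called higher was 38.3% for mIL-21 at 100 pM, 40.2% for 21h10 at 100 pM, 39.9% for mIL-21 at 1 nM and 38.3% for 21h10 at 1 nM, and the shares called lower, in the same order, were 39.4%, 41.3%, 40.3% and 42.1%. The median log2 fold change of the 43 genes was 1.67, 1.78, 1.74 and 1.84 in that order, beside medians over all tested genes between -0.04 and 0.00. In experiment 2, 32 of the 43 were called lower with mIL-21 at 10 nM (23.7% of 13772 tested genes) and 2 higher (22.5%). With 21h10 at 10 nM, 32 were called lower (24.9%) and 3 higher (25.2%). At 100 nM, mIL-21 lowered 31 (23.7%) and raised 2 (22.5%), and 21h10 lowered 23 (25.8%) and raised 5 (25.0%). The medians were -0.59, -0.74, -0.57 and -0.41. These calls used TMM scaling, which assumes that most genes do not change. With mapped reads as library sizes instead, the median over all tested genes in the 4 comparisons of experiment 2 shifted to -0.19, -0.27, -0.23 and -0.32. The share of called genes that were higher went from 48.7%, 50.3%, 48.7% and 49.2% to 29.8%, 25.4%, 25.9% and 23.3%. Of the 43, 36, 39, 36 and 31 were called lower, beside 4728, 5785, 5198 and 6245 of all 13772 tested genes. RPKM is also scaled to mapped reads, and the medians over all genes by limma on log2(RPKM + 1) were -0.16, -0.25, -0.20 and -0.29. The RPKM levels of experiment 2 given below carry this shift.

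**Figure D1:**
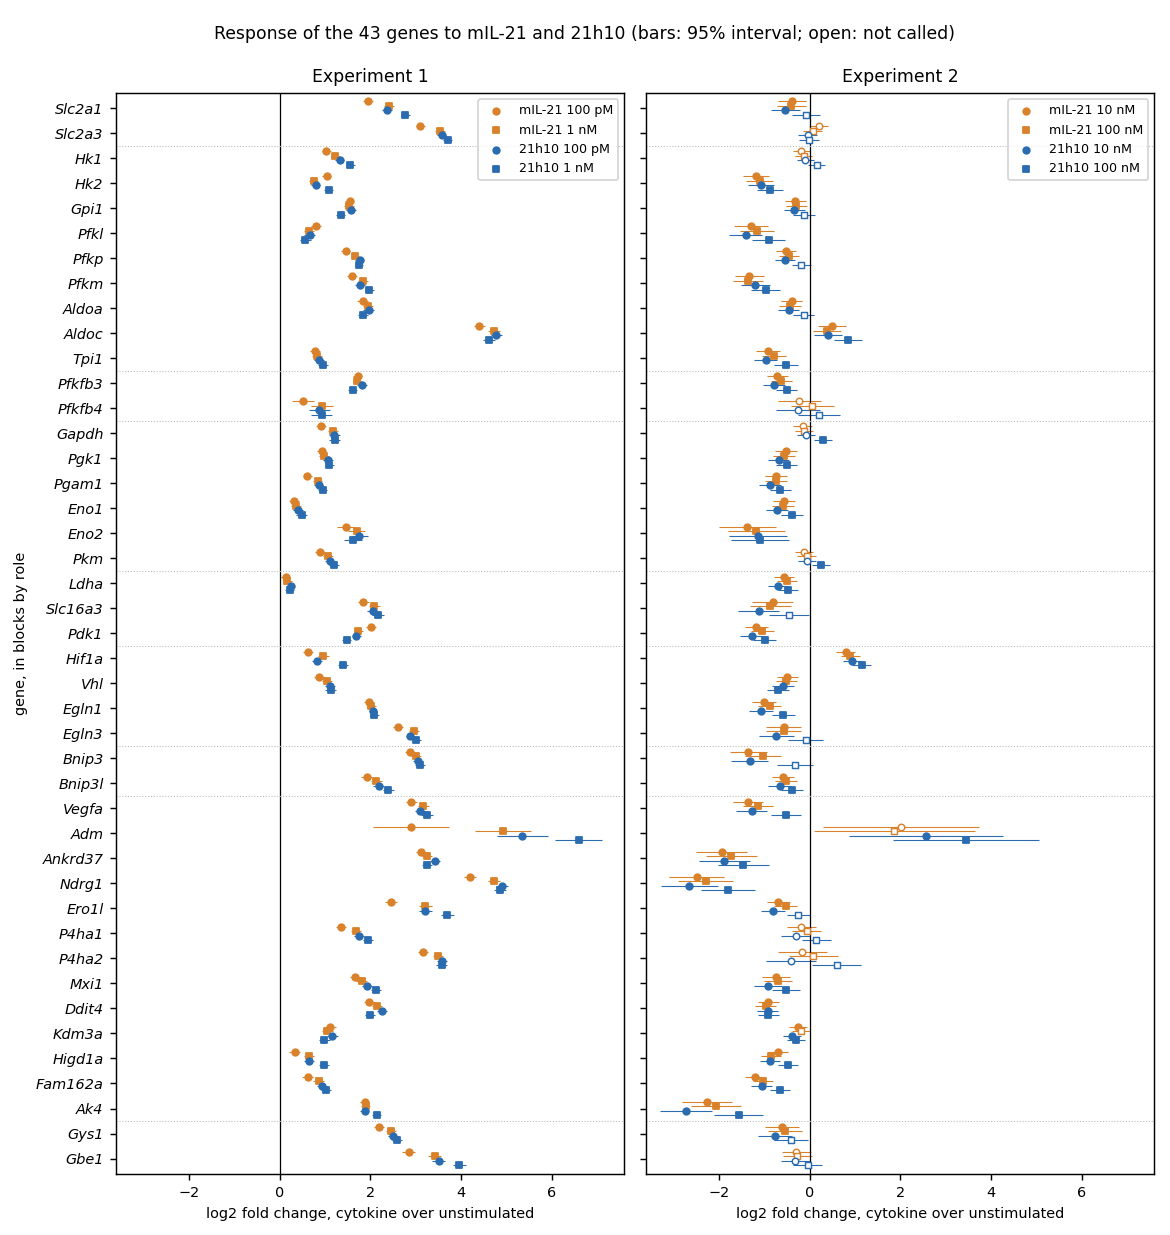
Log2 fold change of each of the 43 genes over unstimulated cells in experiment 1 (left) and experiment 2 (right), with 95% intervals from the edgeR fit, for mIL-21 (orange) and 21h10 (blue) at the lower (circles) and the higher (squares) dose of the experiment. Filled symbols were called at an adjusted p under 0.05; every symbol on the left lies above 0, and 23 to 32 of 43 genes per comparison on the right were called below it.

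The glucose transporters were among the genes that rose strongly in experiment 1. Slc2a1 (GLUT1, GRCm38 chromosome 4, 119108745 to 119137330), the main transporter of activated T cells, read 23.4 and 24.3 RPKM in unstimulated cells, 98.5 and 95.8 (mIL-21, 100 pM), 119.7 and 122 (21h10, 100 pM), 123 and 124 (mIL-21, 1 nM), and 160.4 and 147 (21h10, 1 nM). Every treated library was above both unstimulated ones, and the log2 changes ran from 1.95 ± 0.05 (SE) to 2.77 ± 0.05. In experiment 2 unstimulated cells read 51.5 and 42.4 RPKM and the treated libraries 25.05 to 41.6. Slc2a1 fell by 0.39 ± 0.15 and 0.40 ± 0.15 on the log2 scale with mIL-21 at 10 nM and 100 nM and by 0.53 ± 0.15 with 21h10 at 10 nM, but at 100 nM of 21h10 it was not called (-0.08 ± 0.15, 95% interval -0.40 to 0.23). Slc2a3 (GLUT3), a high-affinity transporter, went from 16.7 and 17.2 RPKM to 151 to 211 in experiment 1, log2 changes of 3.10 to 3.71, and was not called in any comparison with unstimulated cells in experiment 2.

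In upper glycolysis, where hexokinases trap glucose and phosphofructokinase commits it, all 9 enzymes rose in experiment 1, and 7 of 9 fell with every cytokine and dose of experiment 2 except 21h10 at 100 nM, where 4 fell. Hk2, the inducible hexokinase, read 16.6 and 16.4 RPKM in unstimulated cells of experiment 1, 36.3 and 35.5 (mIL-21, 100 pM), 27.3 and 29.4 (21h10, 100 pM), 27.4 and 26.996 (mIL-21, 1 nM), and 32.5 and 33.7 (21h10, 1 nM). In experiment 2 it read 22.4 and 20.3 RPKM unstimulated and 7.58 to 11.4 with cytokine, the groups not overlapping. Its log2 change was 0.75 to 1.08 in experiment 1 and -0.87 to -1.18 in experiment 2. Aldoa, the main aldolase, rose from 713 and 737 RPKM to between 2345 and 2828 in experiment 1. Aldoc, an aldolase best known from brain, stood apart from the other enzymes because it rose in both experiments. It read 5.25 and 5.03 RPKM unstimulated and 113 to 141.4 with cytokine in experiment 1 (log2 changes of 4.41 to 4.78). In experiment 2 it read 23.7 and 19.2 unstimulated and 21.5 to 34.6 with cytokine (0.38 to 0.85, all 4 called). The 3 smaller rises in experiment 2 were lost without TMM scaling, when mapped reads served as library sizes. With 21h10 at 100 nM the rise was 0.85 ± 0.15. Of the phosphofructokinase subunits, Pfkm and Pfkl were called lower in all 4 comparisons of experiment 2, by 0.97 to 1.36 and 0.90 to 1.41, after rises of 1.59 to 1.98 and 0.57 to 0.80 in experiment 1. Pfkp, the platelet-type subunit common in lymphocytes, fell in 3 of the 4 (by 0.45 to 0.54) and rose by 1.46 to 1.77 in experiment 1. Tpi1, which interconverts the triose phosphates, rose by 0.79 to 0.95 and fell by 0.51 to 0.97. Gpi1 rose by 1.34 to 1.57 and fell in 3 of 4 comparisons, by 0.29 to 0.34. Hk1, the constitutive hexokinase, rose by 1.02 to 1.56 in experiment 1 and was not called in experiment 2 (-0.19 to 0.15). Among the PFKFB enzymes, which set the level of the phosphofructokinase activator fructose 2,6-bisphosphate, Pfkfb3 rose from 8.22 and 8.39 RPKM to 23.4 to 29.9 in experiment 1 and fell from 11.96 and 11.1 to 5.02 to 7.26 in experiment 2. Pfkfb4 rose by 0.52 to 0.94 in experiment 1 and was not called in experiment 2 (-0.25 to 0.21).

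The enzymes of lower glycolysis, which yield the ATP and pyruvate, included the most abundant of the 43 transcripts, and of the 9 groups of genes they had the smallest median log2 change in each comparison of experiment 1 (0.91 to 1.15). Gapdh, which oxidises glyceraldehyde 3-phosphate, read 1829 and 1896 RPKM in unstimulated cells and 3685 to 4295 with cytokine in experiment 1, log2 changes of 0.92 to 1.22. In experiment 2 it read 2039 and 1753 RPKM unstimulated and 1350.5 to 2001 with cytokine, the groups overlapping. Its rise with 21h10 at 100 nM (0.29 ± 0.09) and that of Pkm (0.25 ± 0.10), the pyruvate kinase gene, turned to -0.01 and -0.05 with mapped reads as library sizes. That scaling lowered the median over all genes in this comparison to -0.32. Pgk1, the ATP-forming phosphoglycerate kinase, rose by 0.93 to 1.10 in experiment 1, from 900.0 and 903 RPKM to 1701 to 1871, and fell by 0.51 to 0.68 in experiment 2, from 1053 and 830.2 RPKM to 434 to 633. Pgam1, Eno1 and Eno2, the mutase and the enolases, rose by 0.61 to 0.95, 0.32 to 0.48 and 1.47 to 1.76 in experiment 1 and fell in every comparison of experiment 2, by 0.64 to 0.88, 0.39 to 0.71 and 1.09 to 1.37. Gapdh matches 49 other genes at 97% identity or more over 88.0% of its transcript, and Eno1, Pgk1 and Pkm share 85.6%, 68.8% and 65.5% of theirs with near-identical copies, so reads of these genes are uncertain where the counting could split them. For Pkm, the transcript with the M2 exon (chr9:59675568-59675734) held more reads than the one of equal length with the M1 exon (chr9:59675029-59675195) in all 20 libraries. The surplus was 1.33% to 3.12% of all reads of the M2 transcript. Since the 2 transcripts share most of their exons, this percentage does not give the ratio of M2 to M1.

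The genes that decide the fate of pyruvate differed in size of response. Ldha, the lactate dehydrogenase subunit of glycolytic tissue, had the smallest rise of the 43 with mIL-21 at 100 pM, reading 1065 and 1087 RPKM unstimulated and 1136 to 1279.7 over the treated libraries of experiment 1. Its log2 changes were 0.14 ± 0.05 to 0.25 ± 0.05, all called. In experiment 2 it fell from 979 and 789 RPKM to between 398 and 566, by 0.47 to 0.70. Slc16a3 (MCT4), which exports lactate, rose from 25.5 and 26.4 RPKM to 96.5 to 118 in experiment 1, by 1.84 to 2.17. Pdk1, the kinase that restrains pyruvate dehydrogenase, read 16.5 and 16.3 RPKM unstimulated, 71.7 and 68.1 (mIL-21, 100 pM), 50.1 and 54.3 (21h10, 100 pM), 55.8 and 50.6 (mIL-21, 1 nM), and 43.2 and 43.3 (21h10, 1 nM). The unstimulated cells of experiment 2 (52.5 and 51.6 RPKM) already lay within that treated range, and cytokine lowered Pdk1 to 16.0 to 23.5 RPKM there, by 0.99 to 1.27.

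Of the oxygen-sensing genes, Hif1a alone rose in every comparison of both experiments. It read 61.4 and 61.7 RPKM unstimulated in experiment 1, 99.6 and 101 (mIL-21, 100 pM), 105 and 110.1 (21h10, 100 pM), 127 and 108 (mIL-21, 1 nM), and 149.8 and 156 (21h10, 1 nM). In experiment 2 it read 82.3 and 100.2 unstimulated, 137.8 and 143.4 (mIL-21, 10 nM), 143.3 and 147 (21h10, 10 nM), 144 and 147 (mIL-21, 100 nM), and 166 and 163 (21h10, 100 nM). Treated and unstimulated libraries did not overlap in either experiment, and the log2 changes were 0.62 to 1.40 in experiment 1 and 0.80 to 1.15 in experiment 2. Its hydroxylases went the other way in experiment 2. Egln3 read 20.3 and 20.8 RPKM unstimulated and 130.1 to 164 with cytokine in experiment 1, but 53.8 and 47.9 unstimulated and 23.4 to 45.4 with cytokine in experiment 2. It fell by 0.57 ± 0.18 with mIL-21 at 10 nM and at 100 nM and by 0.74 ± 0.18 with 21h10 at 10 nM, and was not called with 21h10 at 100 nM (-0.08 ± 0.18, 95% interval -0.47 to 0.30). Egln1 and Vhl rose in all 4 comparisons of experiment 1 and fell in all 4 of experiment 2.

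Large changes in both directions lay among the other hypoxia genes and the BH3-only proteins. Ndrg1, a stress-induced gene, went from 4.24 and 4.67 RPKM to 85.2 to 134.7 in experiment 1 (log2 changes of 4.21 to 4.90), and from 26.0 and 23.6 RPKM to 2.35 to 6.97 in experiment 2 (-1.79 to -2.65). Bnip3, which marks mitochondria for autophagy, went from 23.1 and 23.0 RPKM to 173 to 193.4 in experiment 1 and from 95.2 and 99.6 to 26.0 to 71.2 in experiment 2. Bnip3 fell by 1.02 to 1.35 in experiment 2, except with 21h10 at 100 nM, where 71.2 and 55.4 RPKM gave no call (-0.33 ± 0.19). Vegfa, an angiogenic growth factor, rose from 4.39 and 4.32 RPKM to 33.1 to 39.7 and fell from 8.97 and 8.36 to 2.52 to 5.49 in experiments 1 and 2. Ankrd37, an ankyrin-repeat protein, rose by 3.13 to 3.42 and fell by 1.46 to 1.94 on the log2 scale. Ak4, a mitochondrial adenylate kinase, rose from 6.07 and 6.18 RPKM to 21.4 to 25.8, and fell from 10.7 and 8.76 to 1.09 to 3.47. Ddit4, an inhibitor of mTORC1, rose from 59.03 and 59.6 RPKM to 221 to 282 and fell from 77.3 and 58.4 to 26.3 to 32.4. Bnip3l, the close relative of Bnip3, rose by 1.92 to 2.4 and fell by 0.39 to 0.66. Fam162a, Higd1a and Mxi1, an antagonist of MYC, rose by 0.62 to 1.03, 0.33 to 0.98 and 1.67 to 2.12, and fell in each comparison of experiment 2 by 0.66 to 1.21, 0.48 to 0.87 and 0.53 to 0.91. The histone demethylase Kdm3a rose by 0.99 to 1.16 and fell in 3 of 4 comparisons of experiment 2, by 0.26 to 0.39. Ero1l rose by 2.46 to 3.70 and fell in 3 of 4, by 0.52 to 0.81. The collagen prolyl hydroxylases P4ha1 and P4ha2 rose by 1.36 to 1.94 and 3.17 to 3.58 in experiment 1 and were not called in experiment 2, where P4ha2 read 4.21 and 4.03 RPKM unstimulated and 1.92 to 5.35 with cytokine. Of the glycogen genes, the synthase Gys1 rose by 2.2 to 2.59, but in experiment 2 only 3 of its 4 changes (-0.41 to -0.77) were called lower. Gbe1 rose by 2.85 to 3.96 and was not called in experiment 2 (-0.04 to -0.31). Transcripts of other genes overlap 28.7% of the exonic bases of Bnip3, 20.1% of Ankrd37 and 23.4% of Fam162a, and whether reads were assigned by strand is not given in the sources used here.

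Adm, encoding the vasodilator adrenomedullin, was at the edge of detection and gave the widest errors. It held 16 and 5 reads in the unstimulated libraries of experiment 1 and 36 to 793 with cytokine, and 2 and 4 reads unstimulated and 9 to 36 with cytokine in experiment 2, where a floor of 3 reads applies. The log2 rise in experiment 1 ran from 2.90 ± 0.40 with mIL-21 at 100 pM to 6.60 ± 0.24 with 21h10 at 1 nM. In experiment 2 only the 21h10 groups were called, at 2.56 ± 0.80 and 3.45 ± 0.76, values that depend on how few reads the unstimulated libraries held. With 2 and 4 reads there, under the filter's count of 10, Adm passed the filter of experiment 2 only through treated libraries. These 2 calls are therefore a description and not support for a rise, although they are counted among the 3 and 5 genes called higher with 21h10 at 10 nM and 100 nM.

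**Figure D2:**
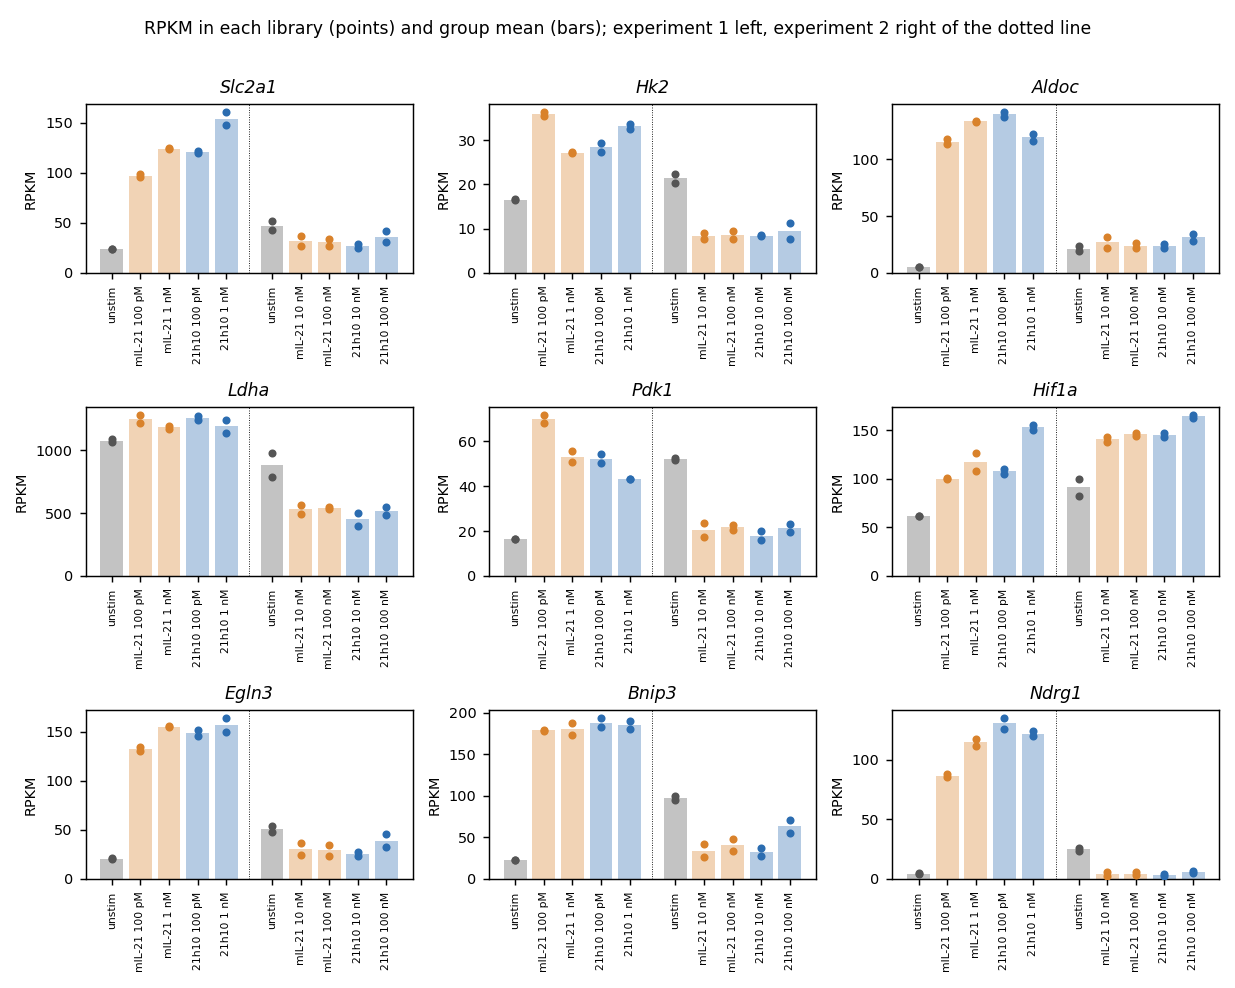
RPKM of 9 genes in each of the 20 libraries (points) with the mean of the 2 duplicates (bars, starting at 0), experiment 1 left and experiment 2 right of the dotted line in each panel. Hif1a is above its unstimulated cells on both sides, whereas Ndrg1, Bnip3, Egln3 and Pdk1 are above them on the left and below them on the right.

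The response was tested for a difference between the experiments in a single fit over 20 libraries, taking the mean of the 4 cytokine groups against unstimulated cells within each. The response was lower in experiment 2 for 42 of the 43 genes by edgeR's test at an adjusted p under 0.05 (33.5% of 14530 tested genes) and higher for 0 (31.2%). The median difference was -2.51 on the log2 scale, beside -0.02 over all tested genes. The largest were Ndrg1 (-7.04 ± 0.28), Ankrd37 (-5.07 ± 0.23) and Vegfa (-4.24 ± 0.14). The smallest called was Ldha (-0.81 ± 0.10). Hif1a was the gene not called, at -0.07 ± 0.09 with a 95% interval of -0.27 to 0.13. This rested on the unstimulated libraries of experiment 2: without replicate 1 the difference was -0.24 and called (adjusted p = 0.0101 by edgeR), and without replicate 2 it was 0.11. With mapped reads as library sizes it was called at -0.23 (adjusted p = 0.034 by edgeR).

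The unstimulated cells of the 2 experiments stood at different levels. The labels name a 1st and a 2nd experiment and do not say whether their libraries were prepared or sequenced together. In RPKM as deposited, set side by side with no test, both unstimulated libraries of experiment 2 were above both of experiment 1 for 29 of the 43 genes (33.3% of 14530 tested genes). The median ratio of their means was 1.39, beside 0.924 over the 9959 symbols with at least 1 RPKM in all 4 libraries. Ndrg1, Bnip3, Pdk1 and Aldoc were among the 29, while Gapdh, Pgk1, Pkm and Ldha were not. All 8 treated libraries of experiment 1 were above the other 12 libraries for 39 of the genes (13.7% of tested genes), the exceptions being Pdk1, Hif1a, Adm and Kdm3a. All 8 treated libraries of experiment 2 were below the other 12 for 16 (18.0%), among them Hk2, Pgk1, Eno1, Ldha, Ddit4 and Ak4. As a share of gene reads, the 43 genes took 1.71% and 1.73% in unstimulated cells of experiment 1 and 3.88% to 4.26% with cytokine. In experiment 2 they took 2.21% and 1.98% unstimulated and 1.36% to 1.90% with cytokine.

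**Figure D3:**
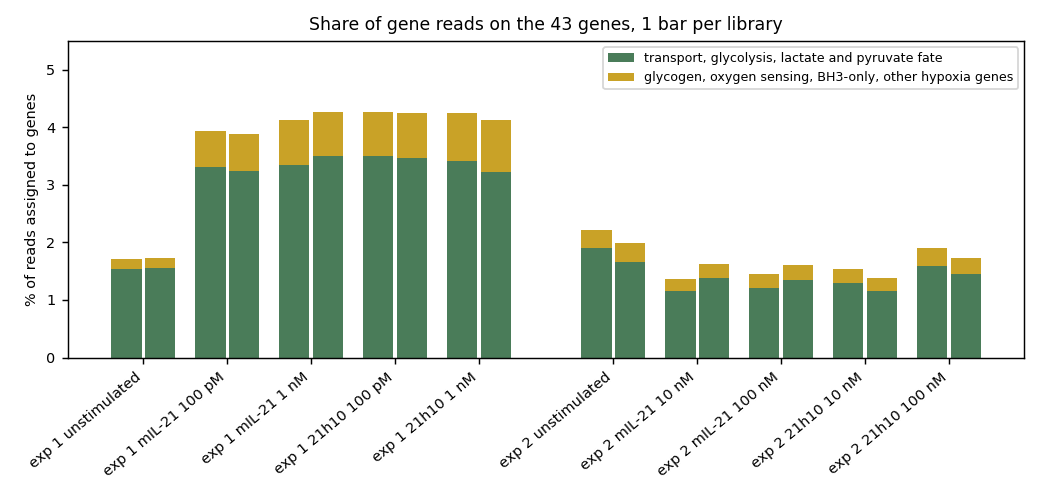
Percent of all reads assigned to genes that fell on the 43 genes, 1 bar per library, split into the genes of transport, glycolysis and pyruvate fate (green) and those of glycogen, oxygen sensing and hypoxia (yellow). The 8 treated libraries of experiment 1 lie between 3.88% and 4.26%, above every other library, and the 8 of experiment 2 between 1.36% and 1.90%, below both of their unstimulated libraries.

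At matched doses in experiment 1, 31 of the 43 genes at 100 pM and 17 at 1 nM were called higher with 21h10 than with mIL-21. At 100 pM 31 of the 43 were called higher with 21h10 (19.6% of tested genes) and 3 lower (19.0%), with a median log2 difference of 0.26. With mapped reads as library sizes 21 were higher and 3 lower, the median over all genes was -0.11, and 28.4% instead of 50.9% of all called genes were higher. The largest were Adm (2.46 ± 0.20), Ero1l (0.75 ± 0.06) and Ndrg1 (0.69 ± 0.05). Ero1l read 246 and 244 RPKM with mIL-21 and 368 and 400.3 with 21h10, without overlap. Slc2a1, Slc2a3 and Hif1a were higher with 21h10 by 0.42 ± 0.05, 0.47 ± 0.04 and 0.21 ± 0.05. The 3 genes higher with mIL-21 were Pdk1 (-0.32 ± 0.05), Hk2 (-0.24 ± 0.05) and Pfkl (-0.14 ± 0.05), the liver-type phosphofructokinase.

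At 1 nM 17 were higher with 21h10 (19.6%) and 3 lower (18.1%), with a median of 0.11, and with mapped reads as library sizes 12 were higher and 5 lower, while the share of all called genes that were higher went from 51.9% to 41.1%. Adm (1.67 ± 0.15), the glycogen-branching enzyme Gbe1 (0.55 ± 0.06) and Ero1l (0.49 ± 0.06) led, and Hif1a (0.43 ± 0.05) and Slc2a1 (0.36 ± 0.05) followed. Gbe1 read 54.1 and 47.3 RPKM with mIL-21 and 67.8 and 75.2 with 21h10. Pdk1 (-0.25 ± 0.05), the isomerase Gpi1 (-0.19 ± 0.05) and Ddit4 (-0.15 ± 0.05) were higher with mIL-21.

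The difference between the cytokines itself was called as dependent on dose for 15 genes, a count that fell to 6 by limma, to 9 with mapped reads as library sizes and to between 8 and 9 without either mIL-21 or either 21h10 library at 100 pM or either unstimulated library. In the test of 1 nM against 100 pM, 13 of the 43 had a smaller or more negative difference at 1 nM (10.0% of tested genes called lower) and 2 a larger one (8.34%), while with mapped reads the share of all called genes that were higher went from 45.4% to 58.7%. Among the called genes Ndrg1 (-0.56 ± 0.07, adjusted p = 4.86e-05 by edgeR), Aldoc (-0.49 ± 0.07) and Ddit4 (-0.43 ± 0.07) fell most. Hk2 turned from lower to higher with 21h10 and had the largest shift upwards (0.57 ± 0.07, adjusted p = 1.32e-05 by edgeR), and Ak4 followed (0.25 ± 0.06).

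In experiment 2 fewer differences between the cytokines were called, but the errors were larger. The median SE was 0.12 at 10 nM and at 100 nM, against 0.05 at 100 pM and at 1 nM. The fewer calls are therefore no measure of a smaller difference between the cytokines. At 10 nM 0 of the 43 were called higher (0.00726% of tested genes) and 0 lower (0%) by edgeR, with 1 lower at an unadjusted p under 0.05 and 0 calls by DESeq2 or limma. The log2 differences ran from -0.47 to 0.55 with a median SE of 0.12. At 100 nM 5 were higher with 21h10 (4.01%) and 0 lower (4.52%), with a median of 0.27. Bnip3 read 33.9 and 48.1 RPKM with mIL-21 and 71.2 and 55.4 with 21h10 (0.70 ± 0.19, adjusted p = 0.0319 by edgeR). Vegfa (0.62 ± 0.16), Gapdh (0.41 ± 0.09), Fam162a (0.38 ± 0.11) and the mitochondrial protein Higd1a (0.37 ± 0.11) were the others. The number called was 0 by limma, 1 with mapped reads as library sizes (where 30.1% instead of 47.0% of all called genes were higher), 18 with no filter on low counts, and 0 without replicate 1 of mIL-21 or replicate 1 of 21h10 at 100 nM.

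**Figure D4:**
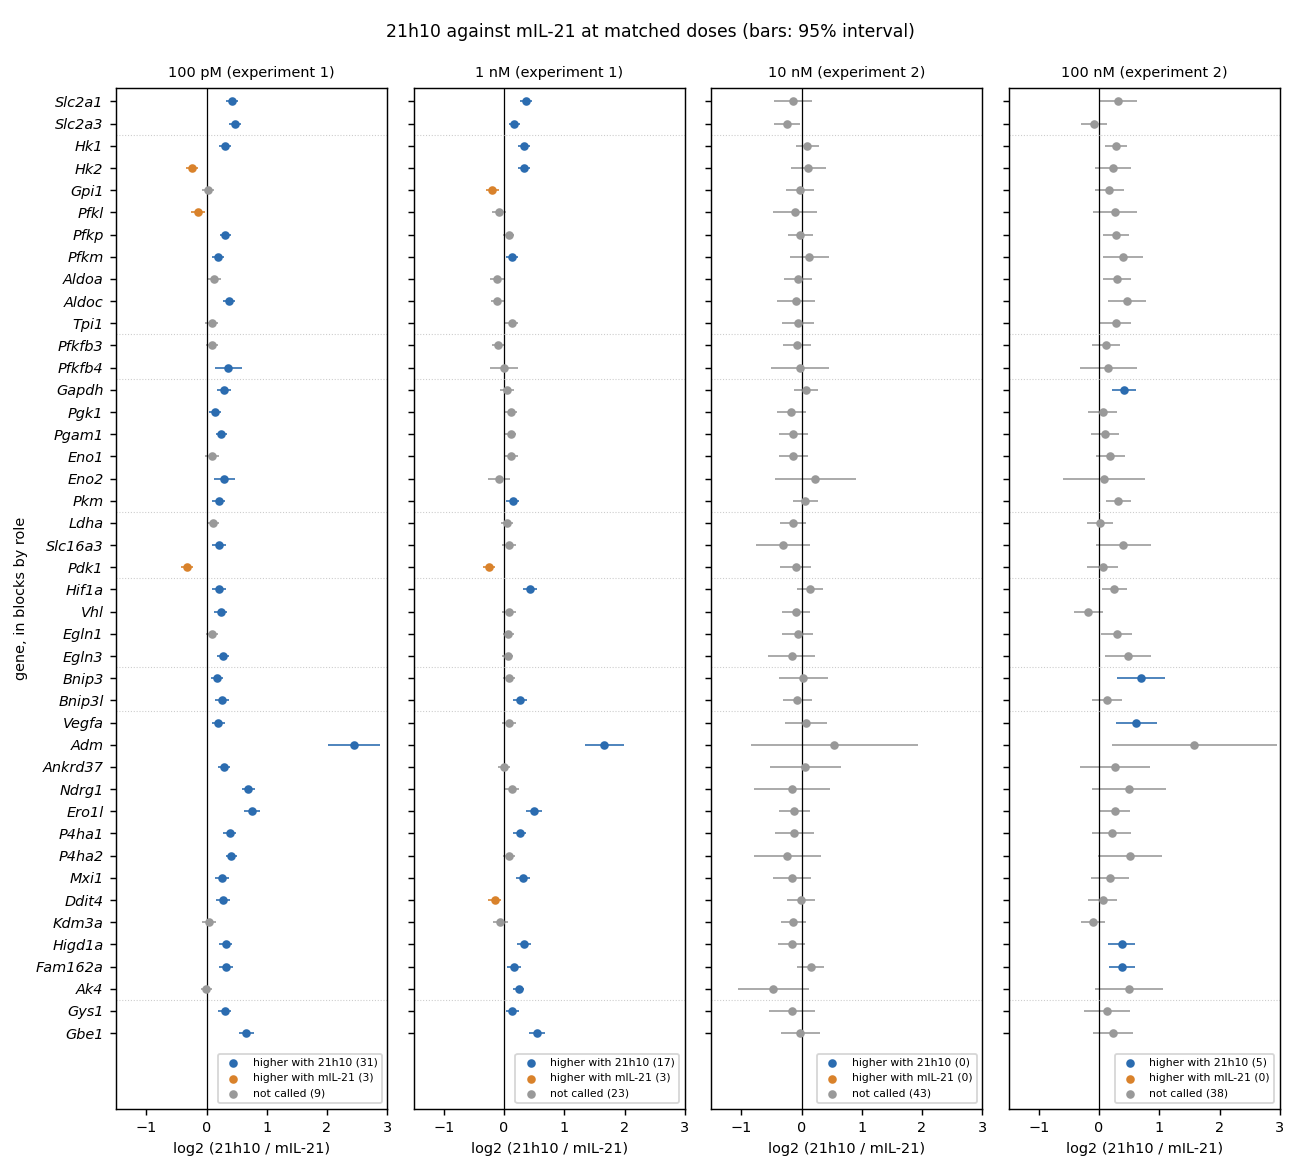
Log2 ratio of 21h10 to mIL-21 for each of the 43 genes at 100 pM and 1 nM (experiment 1) and at 10 nM and 100 nM (experiment 2), with 95% intervals, blue where called higher with 21h10, orange where called higher with mIL-21 and grey where not called. The counts called higher with 21h10 are 31, 17, 0 and 5 from left to right, and Adm lies farthest to the right in each panel.

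The doses of each cytokine were also compared within each experiment. From 100 pM to 1 nM mIL-21 raised 30 of the 43 (17.9%) and lowered 3 (16.6%), with a median of 0.21, led by Adm (2.03 ± 0.22), Ero1l (0.75 ± 0.06) and Gbe1 (0.57 ± 0.06), with Hk2 and Pdk1 (-0.28 ± 0.05 each) and Pfkl (-0.15 ± 0.05) lower. With mapped reads as library sizes 18 were called, and the share of all called genes that were higher went from 51.9% to 26.1%. The same step of 21h10 raised 16 (20.1%) and lowered 7 (19.1%), with a median of 0.07 (51.4% of all called genes higher), led by Adm (1.24 ± 0.14), Hif1a (0.56 ± 0.05) and Ero1l (0.49 ± 0.06). Ddit4 (-0.26 ± 0.05), Gpi1 (-0.23 ± 0.05) and Pdk1 (-0.21 ± 0.05) fell most, so Pdk1 was lower at the higher dose of either cytokine in experiment 1. With mapped reads as library sizes this step raised 10, with a median of 0.01 and 38.0% of all called genes higher, and limma called 9 higher. From 10 nM to 100 nM mIL-21 gave 0 calls higher (0%) and 0 lower (0%) by edgeR, 0 at an unadjusted p under 0.05 and 0 by DESeq2 or limma. The same step of 21h10 raised 10 (1.88%) and lowered 0 (3.45%), led by Ak4 (1.16 ± 0.27), P4ha2 (1.00 ± 0.26) and Bnip3 (0.99 ± 0.19). Those 10 calls fell to 0 by limma, and to 0 without replicate 2 of 21h10 at 10 nM or without replicate 1 of 21h10 at 100 nM.

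Genes next to these in metabolism were counted from lists of the same pathways. Of 22 genes of pyruvate dehydrogenase and the TCA cycle, which oxidise pyruvate in mitochondria, 17 to 20 were called lower and 2 or 3 higher in each comparison of experiment 1, with medians of -0.52 to -0.58. In experiment 2, 9 to 11 were called lower and 1 to 4 higher, with medians of -0.20 to -0.23. Idh3a, a subunit of isocitrate dehydrogenase, went from 57.9 and 58.4 RPKM to 19.4 to 24.9 in experiment 1 and stood at 30.8 and 31.4 unstimulated and 28.0 to 33.7 treated in experiment 2. Its response differed between the experiments by 1.58 ± 0.07. Of 7 pentose phosphate genes, 5 were called lower and 2 higher in each comparison of experiment 1, and 2 to 4 lower and 0 or 1 higher in experiment 2. Pgd, which makes NADPH, was among the lower ones in experiment 1 (-1.01 to -1.19).

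The other isoforms and the other HIF pathway genes were called in both directions in each experiment. These lists and the 43 genes were chosen with earlier results of these data known, so a contrast between them is a description only. Of 13 tested isoforms outside the set, 6 or 7 were called higher and 5 lower per comparison of experiment 1. Ldhb, the lactate dehydrogenase subunit of oxidative tissue, fell from 5.97 and 8.32 RPKM to 0.805 to 1.41 in experiment 2. Of the 20 tested HIF pathway genes outside the set, 13 were called higher and 5 to 7 lower in experiment 1, and 3 to 6 higher and 7 or 8 lower in experiment 2. The shares of all tested genes called were 38.3% to 42.1% in each direction in experiment 1 and 22.5% to 25.8% in experiment 2, the background for these lists too.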

How the data were processed

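Polyadenylated RNA of CD8+ T cells was sequenced in 20 libraries. The deposited tables give, per transcript, read counts that the authors had not normalised and RPKM (reads per kilobase of transcript, scaled to mapped reads) that the authors computed. The submitters' processing notes name Bowtie2 2.2.6, TopHat2 2.0.11, SAMtools 0.1.8, bedtools 2.25.0 and edgeR, and the mm10 build. Whether counting used strand is not given in the sources used here. The longest transcript of each symbol was kept (23992 of 31682 transcripts). Levels of a gene are RPKM, and differences are log2 fold changes of counts scaled by TMM. Genes passed filterByExpr with a count of 10 in a library and a total of 15, and edgeR 4.0.16's quasi-likelihood test was run under R 4.3.3, with 10 libraries per experiment or 20 for the test between experiments. P-values were adjusted by Benjamini-Hochberg over all genes tested, with a threshold of 0.05, and errors are SE of log2 values. Groups came from the labels, which write WT for mIL-21 and h10 for 21h10. The alternatives were DESeq2 1.42.0, limma 3.58.1 on log2(RPKM + 1) for genes at 1 RPKM in at least 2 libraries, a replicate block, no low-count filter, the most-read transcript, mapped reads as library sizes without TMM, only the groups compared, and each library left out. The test was checked on simulated data. Libraries held 40317113 to 110876981 mapped reads, and the biological coefficient of variation was 4.32% in experiment 1 and 8.80% in experiment 2, so smaller changes could be called in experiment 1. Near-identical copies were found with BLAST 2.17.0 at 97% identity over at least 100 bases. The 43 genes and the other lists were chosen with earlier results of these data known. Named genes were 16 chosen for their roles and, in each comparison, the 3 called with the largest rise and fall whose groups did not overlap, and further genes were named after their values were seen. Of genes outside the 43, up to 4 called with the largest change were named per list. Values of some single genes in these lists are not reported here.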

Additional observations from a re-analysis of the deposited data

Results flagged for a closer look

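The response to cytokine differed between the experiments, by the interaction test in edgeR, for 42 of the 43 genes. All 42 were lower in experiment 2, beside 33.5% of 14530 tested genes called lower and 31.2% called higher. On the log2 scale the response in experiment 2 minus that in experiment 1 was -2.79 for Slc2a1, -2.04 for Hk2, -2.43 for Pfkfb3, -2.31 for Aldoa, -1.21 for Gapdh, -1.65 for Pgk1, -0.81 for Ldha and -1.13 for Pkm. It was -2.91 for both Slc16a3 and Pdk1. Among the hypoxia genes it was -4.07 for Bnip3, -3.42 for Egln3, -4.24 for Vegfa, -5.07 for Ankrd37, -3.08 for Ddit4 and -7.04 for Ndrg1. Experiment and dose range changed together and cannot be told apart.

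The difference between 21h10 and mIL-21 changed from 100 pM to 1 nM for 15 of the 43 genes by the same kind of test (10.0% of all tested genes lower and 8.34% higher), and the count fell to 6 by limma, 9 with mapped reads as library sizes and 8 on leaving out a library. It moved by 0.57 for Hk2 and 0.25 for Ak4. It moved by -0.56 for Ndrg1, -0.49 for Aldoc, -0.43 for Ddit4, -0.29 for Ankrd37, -0.25 for both Aldoa and Gapdh, -0.21 for Egln3 and -0.20 for Pfkfb3. With 2 libraries a group, no search for a library far from the rest of its group was possible.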

How the results depend on the processing

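The counts of genes called against unstimulated cells and between the experiments stayed within 1.5 times under every alternative, at 42 or 43 in experiment 1 and 22 to 41 in experiment 2. Comparisons between cytokines and doses moved more. For 21h10 against mIL-21 at 100 pM limma called 21, and at 1 nM a fit of only the groups compared called 13. At 100 nM the 5 calls became 18 with no filter on low counts, 0 by limma, 1 with mapped reads as library sizes, 14 with only the groups compared, and 0 to 10 leaving out a library (0 without replicate 1 of either cytokine group at 100 nM, 2 without replicate 2 of 21h10). For mIL-21 from 100 pM to 1 nM limma called 15 and mapped reads 18. For 21h10 from 10 nM to 100 nM the 10 calls became 22 with no filter, 0 by limma, 5 with mapped reads, 27 with only the groups compared, and 0 to 16 leaving out a library (0 without replicate 2 at 10 nM or replicate 1 at 100 nM, 5 without replicate 1 at 10 nM or replicate 2 at 100 nM). For the change of the cytokine difference with dose, limma called 6, mapped reads 9 and only the groups compared 9, with 8 to 16 leaving out a library (9 without either unstimulated library of experiment 1 or replicate 1 of 21h10 at 100 pM, 8 without either mIL-21 library or replicate 2 of 21h10 at 100 pM). The cause of these moves was not tested.

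Signs turned in experiment 2 for the called rises of Gapdh and Pkm with 21h10 at 100 nM, and for changes close to 0. Against unstimulated cells, Gapdh with 21h10 at 100 nM was -0.0072 by limma and -0.0086 with mapped reads, and Pkm was -0.046 and -0.0482. Leaving out a library gave -0.1486 to 0.0229 for Pkm with 21h10 at 10 nM, -0.1548 to 0.0166 for Pkm with mIL-21 at 100 nM, -0.297 to 0.0946 for Slc2a1 and -0.3187 to 0.1053 for Egln3 with 21h10 at 100 nM. The difference of Hif1a between the experiments ran from -0.2438 (called, adjusted p = 0.0101 by edgeR, without replicate 1) to 0.1138, the latter without replicate 2 of the unstimulated cells of experiment 2.

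Replicate numbers did not pair the libraries: deviations from group means correlated at -0.06 to 0.03 in experiment 1 and -0.17 to 0.23 in experiment 2. With the replicate block, 43 genes were called in each comparison with unstimulated cells in experiment 1, and 33, 35, 32 and 28 in experiment 2, in the order mIL-21 and 21h10 at 10 nM, then both at 100 nM. Under the block 42 differed between the experiments. Aldoc with mIL-21 at 100 nM was lost under it (0.38, adjusted p = 0.0504 by edgeR).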
